A study of Homo sapiens with 6 samples.

Results

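The genes described here are 41 epithelial junction and epithelial identity genes, chosen by gene symbol from a fixed list and found, all 41 of them, among the 23617 symbols of the MDA-MB-231 table. They comprise 3 cell adhesion genes of the cadherin and EpCAM type, 16 tight junction genes, 11 desmosomal and plakin genes, 8 regulators of epithelial transcription and splicing, and 3 genes of polarity, vesicle trafficking and surface proteolysis. Their RNA was measured by sequencing of polyadenylated RNA in human mammary cells left untreated or given decitabine (5-aza-2'-deoxycytidine, DAC), a cytidine analog that traps DNA methyltransferases, at 10 µM every day with collection at 72 h. MDA-MB-231, an established human breast cancer line, gave 1 untreated and 1 DAC library, and HMLER, a line of human mammary epithelial cells transformed in culture, gave 2 untreated and 2 DAC libraries. Libraries were made from pooled extractions, so the spread between cultures was not measured. The untreated MDA-MB-231 library is labelled MDA-MB-232 in its cell line field and MDA-MB-231 in its title, and the title was used.

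Epithelial cells are held together by adherens junctions built on cadherins, by desmosomes, whose cadherins (desmogleins and desmocollins) are tied through plakoglobin, plakophilins and plakins to keratin filaments, and by tight junctions, in which claudins and occludin seal the space between neighbouring cells and are tied to actin by ZO proteins and cingulin. The ESRP splicing factors and the GRHL, OVOL and ELF3 transcription factors are known for keeping cells in the epithelial state. Claudin-low mammary tumours, to which MDA-MB-231 is commonly assigned, are known for low amounts of several claudins and of E-cadherin.

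Levels are given in FPKM, which scales fragments to transcript length and sequencing depth, summed over the transcripts of a symbol. With 1 library per condition in MDA-MB-231 and 1 value merged over the 2 libraries per condition in HMLER, no difference could be checked between replicates, and p-values were not computed. In MDA-MB-231 a gene with 1 FPKM or more in at least 1 library was called higher if the ratio of its DAC to its untreated level exceeded 2, and lower if that ratio was under 0.5. The HMLER table holds only transcripts that were higher after DAC (none with a ratio under 2 or a DAC value under 1 FPKM), so a member that is not listed there was not analysed in HMLER, and none can appear as lower. Low values of the MDA-MB-231 table fell on whole multiples of the worth of 1 fragment, which allowed fragments to be inferred. Of 767 low values of the untreated library and 811 of the DAC library, 100% lay within 0.1 of a whole fragment, and the depths implied were about 43100000 and 42900000 fragments. The 95% intervals given with ratios come from these fragments (exact binomial), cover counting error only, and compare the 2 libraries rather than the conditions.

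The untreated MDA-MB-231 library held abundant RNA of the luminal keratins KRT8 (154.4 FPKM) and KRT18 (173.5 FPKM) together with 3066 FPKM of the mesenchymal filament vimentin (VIM). The other luminal markers were low there: ESR1 and PGR were listed at 0, ERBB3 was at 0.496, GATA3 at 0.795 and FOXA1 at 1.10 FPKM. Basal markers differed in the same library: TP63 was listed at 0, KRT5 was at 0.0112, ACTA2 at 0.705 and MYLK at 15.2 FPKM. Of the basal keratins, KRT14 and KRT17 were listed at 0 in untreated MDA-MB-231, and in HMLER they went from 11.6 to 52.2 and from 6.33 to 117.8 FPKM. Of 5 leukocyte markers none reached 1 FPKM, all 5 were listed above their untreated level after DAC, and their summed level went from 0.150 to 1.21 FPKM. For LYZ the ratio was only 1.006. Of 4 endothelial markers, all 4 were above their untreated level and the sum went from 0.482 to 1.43 FPKM. Their part in the results was not tested. Taking the 11292 symbols that had at least 1 FPKM in each library, the median ratio of DAC to untreated was 0.912 (log2 ratio -0.13).

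Untreated MDA-MB-231 cells held little RNA of most of these genes: 8 of the 41 were listed at 0, 12 more were above 0 but under 0.1 FPKM, and 25 in all were under 1 FPKM. Low values were common over the whole table. Of its 23617 symbols, 16540 were above 0 in the untreated library, and 12525 reached 1 FPKM in at least 1 library. Of the 25 members under 1 FPKM, 24 had a higher value after DAC, and 5 reached 1 FPKM or more: CLDN1, CLDN3, CLDN6, ESRP2 and GRHL1. The 16 members at 1 FPKM or more in untreated cells were divided, 10 being above and 6 below their untreated value. In all, 34 of the 41 members had the higher value after DAC, against 10336 of the 23617 symbols. Of all symbols, 5021 were at 0 in both libraries and could not differ. No share was computed over all symbols under 1 FPKM in untreated cells, so neither the 24 nor the 5 of the 25 members can be read as particular to them. Among symbols under 1 FPKM in both libraries and above 0 in at least 1, 81.3% had the higher value after DAC. Among the 21 members that reached 1 FPKM in at least 1 library, 7 were higher (CLDN1, CLDN3, CLDN6, F11R, JUP, ESRP2 and GRHL1) and 3 were lower (CLDN4, PKP3 and EVPL). Over the 12525 symbols that reached this level, 10.8% were higher and 4.82% were lower. Set against every symbol of the table, 7 of 41 members compares with 5.72%, and 3 of 41 with 2.56%. Of the 7 higher members, CLDN1, CLDN3, CLDN6, ESRP2 and GRHL1 entered the 21 only through the DAC library, so they could only be higher. With 1 FPKM required in each library, 2 were higher (F11R and JUP) and 3 lower, without a share over all symbols for that filter. The median log2 change of the 21 members, computed with 1 FPKM added to each value, was 0.34, against -0.08 over the 12525 symbols. The same 5 genes enter this median. With a minimum of 5 FPKM in any library it was 0.042, against -0.151 over all symbols. When ratios were divided by the median ratio of all symbols, CLDN7 and DSP passed the threshold too and EVPL and PKP3 no longer did, which gave 9 higher and 1 lower.

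**Figure D1:**
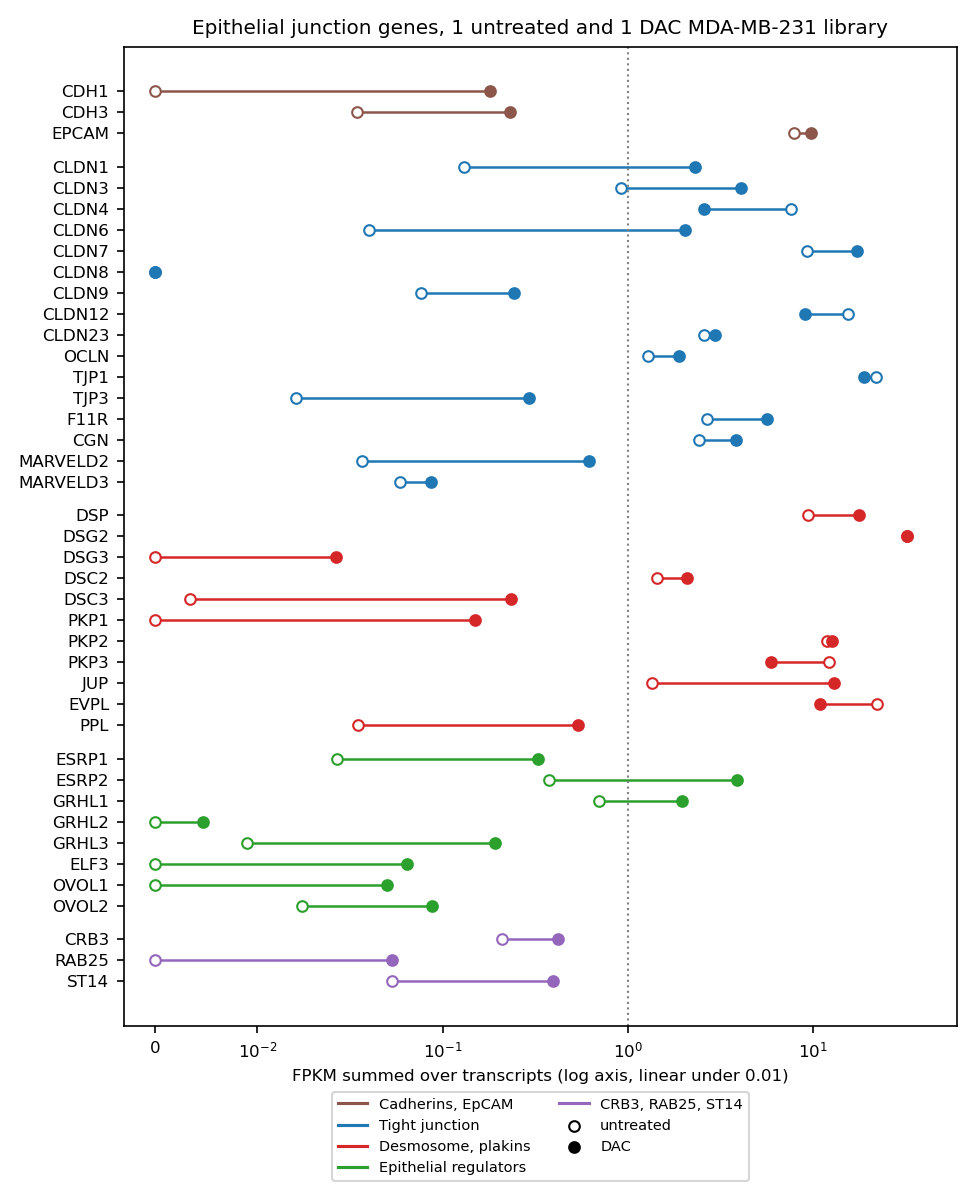
FPKM of the 41 members (horizontal axis, log scale, linear under 0.01 FPKM) in 1 untreated (open circles) and 1 DAC-treated (filled circles) MDA-MB-231 library, ordered and coloured by role, with a dotted line at 1 FPKM. Most genes to the left of the line in untreated cells lie further right after DAC, whereas CLDN4, CLDN12, PKP3, EVPL and TJP1 lie further left and the circles of DSG2 coincide.

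Low symbols in general had higher values in the DAC library. Among the 6071 symbols under 1 FPKM in both libraries and above 0 in at least 1, 81.3% had the higher value after DAC, and all 19 members in this class did. Once counting error was considered, in a count chosen after the data were seen, 16 members had a ratio whose 95% interval lay above 2. This was asked of 38 members with more than 3 fragments in at least 1 library, and 12.2% of the 16132 symbols with that many fragments passed. The interval lay under 0.5 for CLDN4 alone among the members, and for 2.21% of the symbols. Where the untreated library held no fragment, a ratio is given only by the lower limit of this interval.

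**Figure D2:**
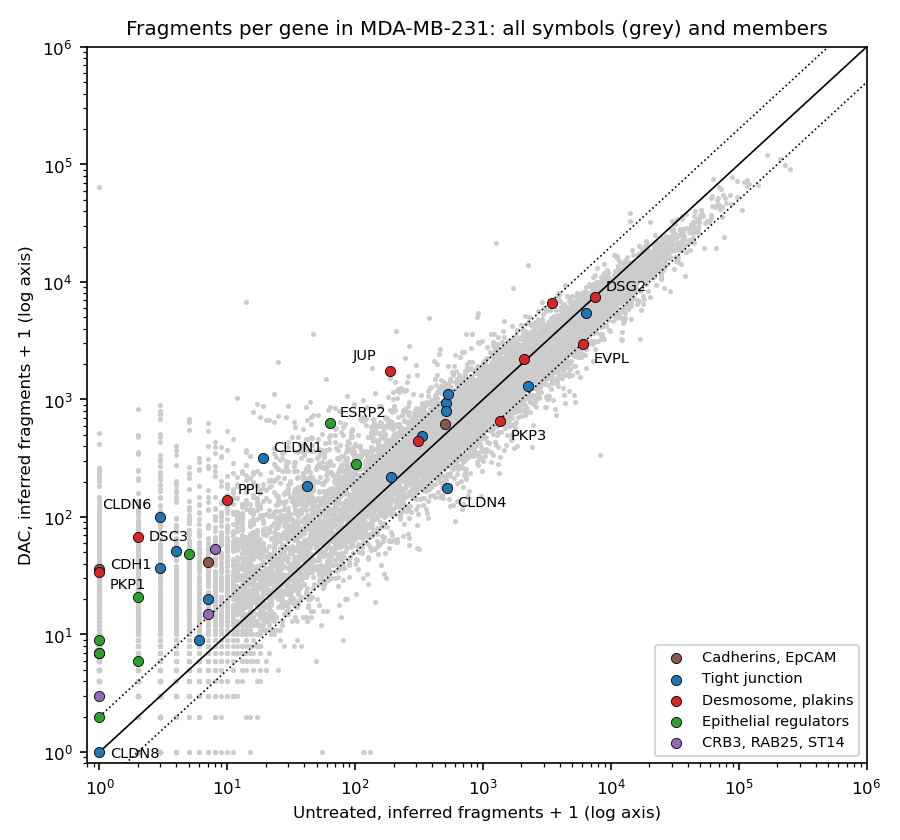
Inferred fragments plus 1 in the untreated (horizontal, log axis) and the DAC (vertical, log axis) MDA-MB-231 library for every symbol with transcripts over 500 bases (grey) and for the members, coloured by role. The solid line marks equality and the dotted lines 2-fold differences of fragments. The cloud of low symbols leans above the line of equality, and JUP, ESRP2, CLDN1 and CLDN6 lie above the upper dotted line.

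Cuffdiff's own bounds were wide. For the largest transcript of each symbol, the bounds of the DAC library lay wholly above those of the untreated library in 1 member, JUP, against 1.06% of the 12396 symbols whose largest transcript reached 1 FPKM, and wholly below in 0 members, against 0.379%. The bounds of CLDN6, for example, ran from 0 to 0.139 FPKM in untreated cells and from 0 to 4.73 FPKM after DAC, so that they overlapped in spite of 2 against 99 fragments. The sources used here do not state the confidence level of these bounds.

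**Figure D3:**
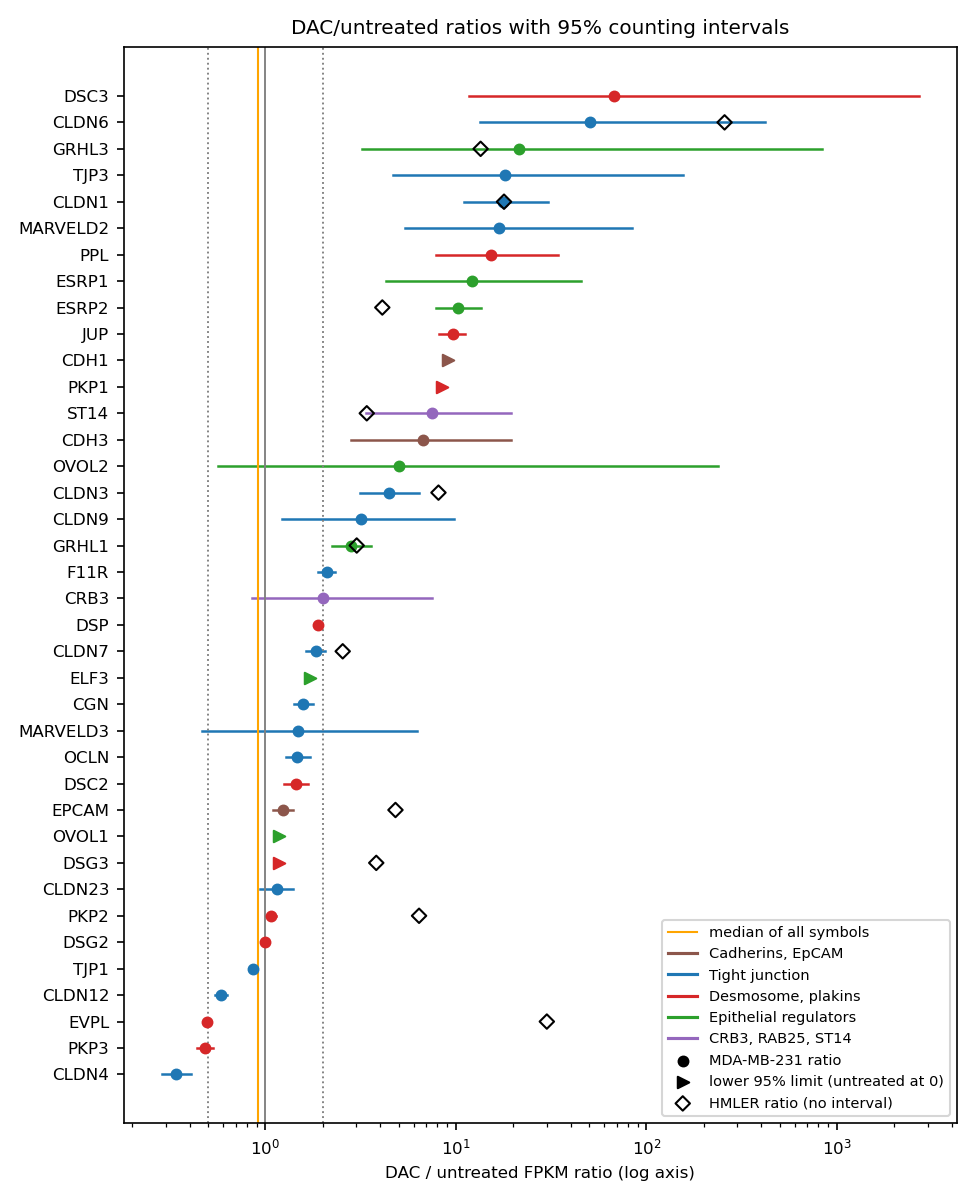
DAC/untreated ratio of FPKM (log axis) in MDA-MB-231 for the 38 members with more than 3 fragments in at least 1 library, with 95% counting intervals as horizontal lines and triangles for the lower 95% limit where the untreated value was 0. Open diamonds give the HMLER ratio of the 12 members listed there, without an interval. Dotted lines mark ratios of 0.5 and 2 and the orange line the median of all symbols, 0.912. EVPL has its circle at 0.493 and its diamond at 30.03.

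Of the adhesion genes, CDH1 (hg19, chromosome 16, 68771195 to 68869440, plus strand), which encodes E-cadherin, the core of the epithelial adherens junction, was listed at 0 FPKM in untreated MDA-MB-231 cells and at 0.179 FPKM after DAC, or 35 fragments, and the lower 95% limit of its ratio was 9.05. CDH3, the neighbouring gene for P-cadherin, was at 0.0346 FPKM (6 fragments) in untreated cells and at 0.232 FPKM (40 fragments) after DAC, a ratio of 6.71 (95% interval 2.83 to 19.4). Both cadherins thus stayed under 1 FPKM in the treated cells, and neither is listed in HMLER. EPCAM, which encodes a surface adhesion molecule of epithelia, was already at 7.90 FPKM in untreated MDA-MB-231 cells and at 9.78 FPKM after DAC, a ratio of 1.24 (1.10 to 1.39). In HMLER it went from 0.450 to 2.17 FPKM, 4.82-fold. EPCAM was therefore the 1 adhesion member listed in HMLER. Exons of CDH1 and CDH3 overlap those of RNAs annotated on the opposite strand over 347 and 537 bases, and strand use in the counting is not given in the sources used here.

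Of the 16 tight junction genes, 11 reached 1 FPKM in MDA-MB-231, with a median log2 change of 0.50, 4 were higher, and 1 was lower. Of the higher ones, CLDN1, CLDN3 and CLDN6 were under 1 FPKM in untreated cells and reached that level only in the DAC library. Of all symbols in the MDA-MB-231 table, 7.85% are listed in HMLER. The 4 tight junction genes listed there were CLDN1, CLDN3, CLDN6 and CLDN7, all of them claudins, the 4-pass membrane proteins that form the tight junction strands. The 250 bases before the annotated start of CLDN6, CLDN1 and CLDN3, which were higher in both lines, of the desmosomal gene JUP, which was higher in MDA-MB-231, and of CLDN4, which was lower there, are shown to let their CG content be compared, since DAC acts on the enzymes that methylate cytosine in CG. Sequences are from RefSeq on GRCh38.p14, given 5′ to 3′ on the strand of the gene, with every CG in capitals.
CLDN6 (chr16:3018184-3018433, minus strand): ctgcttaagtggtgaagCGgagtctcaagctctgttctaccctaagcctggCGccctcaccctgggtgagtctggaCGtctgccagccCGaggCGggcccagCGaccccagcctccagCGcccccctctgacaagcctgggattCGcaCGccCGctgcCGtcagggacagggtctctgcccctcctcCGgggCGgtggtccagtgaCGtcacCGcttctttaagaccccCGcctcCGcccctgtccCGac
CLDN1 (chr3:190322447-190322696, minus strand): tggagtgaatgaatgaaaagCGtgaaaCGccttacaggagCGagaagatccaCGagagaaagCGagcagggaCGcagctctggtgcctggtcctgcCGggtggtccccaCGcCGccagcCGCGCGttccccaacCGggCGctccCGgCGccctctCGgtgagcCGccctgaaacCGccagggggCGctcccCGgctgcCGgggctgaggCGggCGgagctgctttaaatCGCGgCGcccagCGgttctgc
CLDN3 (chr7:73770271-73770520, minus strand): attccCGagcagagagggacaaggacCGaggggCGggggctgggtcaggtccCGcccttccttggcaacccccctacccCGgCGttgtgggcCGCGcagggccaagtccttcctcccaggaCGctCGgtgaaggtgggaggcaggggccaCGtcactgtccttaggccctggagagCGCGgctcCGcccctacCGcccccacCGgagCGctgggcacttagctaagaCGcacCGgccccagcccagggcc
JUP (chr17:41786712-41786961, minus strand): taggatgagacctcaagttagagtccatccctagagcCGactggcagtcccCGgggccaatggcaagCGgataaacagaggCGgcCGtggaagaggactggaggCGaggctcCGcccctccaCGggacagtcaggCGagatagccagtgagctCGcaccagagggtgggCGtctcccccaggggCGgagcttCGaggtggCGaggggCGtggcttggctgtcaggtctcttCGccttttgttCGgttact
CLDN4 (chr7:73830746-73830995, plus strand): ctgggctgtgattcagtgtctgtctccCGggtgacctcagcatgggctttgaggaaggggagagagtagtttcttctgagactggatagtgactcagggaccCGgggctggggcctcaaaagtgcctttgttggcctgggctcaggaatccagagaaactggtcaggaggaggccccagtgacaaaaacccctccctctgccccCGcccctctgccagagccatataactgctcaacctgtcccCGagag

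CLDN1 held 28 CG in these 250 bases, CLDN3 19, CLDN6 18 and JUP 17, whereas CLDN4 held 4. The observed/expected CG ratio, which corrects for base composition, was 0.948 for CLDN1, 0.687 for JUP, 0.643 for CLDN6, 0.594 for CLDN3 and 0.185 for CLDN4. Of the 41 members, 23 were found in the promoter table. Their median ratio was 0.663, and 14 of 23 (60.9%) were above 0.6. Among all 27305 promoters of the reference, 47.4% were above 0.6, with a median of 0.556. Of the 14702 promoters whose symbols are in the MDA-MB-231 table, 63.0% were above 0.6, with a median of 0.735, so the share among the members was close to that of the genes measured. GRHL1, which was higher in both lines, held 45 CG, and GRHL3, which is also listed in HMLER, held 3. The 8 promoters of members within 2-fold had a median of 25 CG and a ratio of 0.781, and the 5 of members called higher had 19 CG and 0.687. The 9 of members under 1 FPKM in both libraries had 12 CG and 0.488. In CG content the higher members thus lay below the members within 2-fold and above those under 1 FPKM. CLDN4 was the 1 lower member with a promoter in the reference. DNA methylation was not analysed here.

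CLDN6 (hg19, chromosome 16, 3064713 to 3070072, minus strand), a claudin best known from embryonic epithelia, had the largest ratio of the members higher in MDA-MB-231. It was at 0.0402 FPKM (2 fragments) in untreated cells and at 2.04 FPKM (99 fragments) after DAC, a ratio of 50.8 with an interval of 13.4 to 417. In HMLER it went from 0.0588 to 15.1 FPKM, a ratio of 257. CLDN6 was near 0 in untreated cells of both lines. Its exons share 40 bases, 2.30% of their length, with TNFRSF12A on the opposite strand, an abundant RNA at 227.3 and 153.5 FPKM. The adjacent gene CLDN9, on the opposite strand of the same locus, stayed at 0.0762 FPKM (6 fragments) and 0.243 FPKM (19 fragments), a ratio of 3.19 (1.22 to 9.75), and is not listed in HMLER.

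CLDN1 (chromosome 3, 190023496 to 190040235, minus strand), a claudin needed for the barrier of the skin, was at 0.130 FPKM (18 fragments) and 2.30 FPKM (317 fragments) without and with DAC in MDA-MB-231, a ratio of 17.7 (11.03 to 30.3). In HMLER it was at 0.646 and 11.6 FPKM, a ratio of 17.9. The ratios in the 2 lines were close. CLDN3 (chromosome 7, 73183327 to 73184600, minus strand), a widely expressed barrier claudin, went from 0.921 FPKM (41 fragments) to 4.08 FPKM (181 fragments) in MDA-MB-231, a ratio of 4.43 (3.15 to 6.40). In HMLER it went from 0.299 to 2.42 FPKM, a ratio of 8.10. CLDN7, another barrier claudin, was among the more abundant members, at 9.35 FPKM in untreated MDA-MB-231 cells and 17.2 FPKM after DAC, a ratio of 1.84 (1.64 to 2.05). It went from 6.02 to 15.3 FPKM in HMLER, a ratio of 2.55. CLDN7 was thus well expressed in untreated cells of both lines, unlike CLDN1, CLDN3 and CLDN6.

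CLDN4 (chromosome 7, 73213872 to 73247020, plus strand) lies near CLDN3 and went the other way. It was at 7.62 FPKM (520 fragments) in untreated MDA-MB-231 cells and at 2.60 FPKM (176 fragments) after DAC, a ratio of 0.341 (0.285 to 0.405). It was the 1 member that remained lower under every alternative tried, including division by the median ratio. CLDN12, a claudin that lacks the usual scaffold-binding tail, was at 15.4 and 9.01 FPKM, a ratio of 0.585 (0.546 to 0.627). Of its 3 transcripts, NM_001185073 went from 2.08 FPKM to nearly 0, while the most abundant, NM_012129, was at 8.73 and 6.09 FPKM. CLDN23 was at 2.58 and 2.96 FPKM, a ratio of 1.15 with an interval, 0.941 to 1.40, that included 1, and 1566 bases of its exons (72.5%) overlap a pseudogene annotated on the same strand. CLDN8, a claudin of the kidney tubule, was listed at 0 in both libraries.

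The membrane partners of the claudins differed among themselves. F11R (chromosome 1, 160965001 to 160991133, minus strand), the gene of the adhesion molecule JAM-A, was at 2.69 FPKM (532 fragments) and 5.64 FPKM (1110 fragments), a ratio of 2.10 whose interval, 1.89 to 2.33, included 2. Of its exon bases, 1853 (36.6%) are shared with another gene annotated on the same strand, so the reads of the pair could not be told apart there. OCLN, encoding occludin, was at 1.28 and 1.89 FPKM, a ratio of 1.47 (1.29 to 1.71). MARVELD2, the gene of tricellulin, which sits where 3 cells meet, had 3 fragments in untreated cells and 50 after DAC, or 0.0366 and 0.615 FPKM, a ratio of 16.8 (5.42 to 84.0). MARVELD3, a relative of occludin, was at 0.0588 and 0.0868 FPKM (5 and 8 fragments), a ratio of 1.48 (0.464 to 6.25), and shares 1068 exon bases with PHLPP2 on the opposite strand. Occludin and its 2 relatives therefore had ratios from 1.47 to 16.8, the highest at a level still under 1 FPKM.

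Among the scaffold genes, TJP1, which encodes ZO-1, was the most abundant tight junction member, at 21.9 FPKM in untreated MDA-MB-231 cells and 18.9 FPKM after DAC, a ratio of 0.863 (0.829 to 0.891). Its shorter transcript, NM_175610, was at 15.3 FPKM in both libraries, and the longer one, NM_003257, at 6.60 and 3.58 FPKM. CGN, encoding cingulin, was at 2.43 and 3.85 FPKM, a ratio of 1.58 (1.42 to 1.77). TJP3, encoding ZO-3, was at 0.0161 FPKM (2 fragments) and 0.292 FPKM (36 fragments), a ratio of 18.2 (4.66 to 155). The scaffold present in quantity was thus near its untreated level, and the largest relative difference was in the ZO gene that was near 0.

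**Figure D4:**
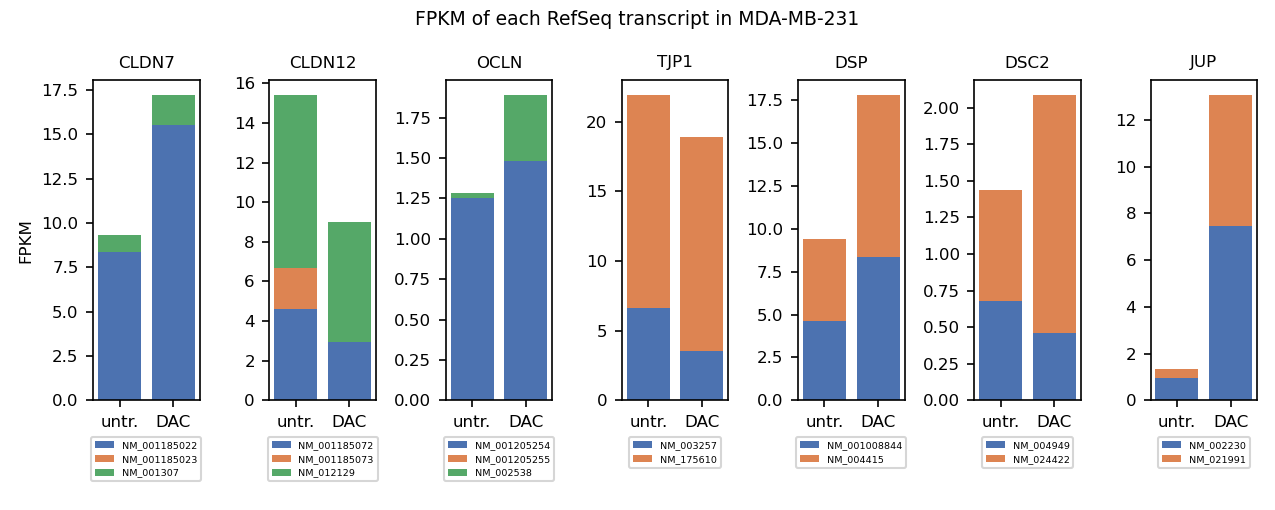
FPKM of each RefSeq transcript (stacked colours, bars from 0) in the untreated and the DAC library of MDA-MB-231 for 7 members with several transcripts. Each panel has its own axis. Both JUP transcripts and both DSP transcripts are higher after DAC, whereas 1 of 2 transcripts differs in TJP1 and NM_001185073 is nearly absent after DAC in CLDN12.

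Of the 11 desmosomal and plakin genes, 7 reached 1 FPKM in MDA-MB-231, with a median log2 change of 0.09. JUP was higher, PKP3 and EVPL were lower, and the other 4 were within 2-fold. JUP (chromosome 17, 39910856 to 39943183, minus strand) encodes plakoglobin, the armadillo protein shared by desmosomes and adherens junctions. It was at 1.36 FPKM (186 fragments) in untreated cells and at 13.0 FPKM (1758 fragments) after DAC, a ratio of 9.61 (8.17 to 11.1). The largest transcript, NM_002230, was at 0.945 FPKM (bounds 0 to 2.21) and 7.47 FPKM (bounds 2.62 to 12.3), and NM_021991 went from 0.413 to 5.58 FPKM. Both transcripts were therefore higher, and JUP had the largest log2 change of the members, 2.57. JUP is not listed in HMLER.

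The desmosomal cadherins ranged from abundant to nearly silent genes. DSG2, the desmoglein of simple epithelia, was the most abundant of all 41 members and was at 32.3 and 32.1 FPKM, a ratio of 0.993 (0.961 to 1.03). DSC2, its desmocollin counterpart, was at 1.44 and 2.08 FPKM, a ratio of 1.45 (1.25 to 1.68). Its transcripts went in opposite directions, NM_024422 from 0.754 to 1.62 FPKM and NM_004949 from 0.682 to 0.461 FPKM. DSC3, a desmocollin of stratified epithelia, had 1 fragment in untreated cells and 67 after DAC, or 0.00348 and 0.235 FPKM, a ratio of 67.6 with an interval of 11.7 to 2702. DSG3, the desmoglein of stratified epithelia, was listed at 0 and at 0.0265 FPKM (6 fragments), with a lower 95% limit of the ratio of 1.18, and in HMLER it went from 0.551 to 2.11 FPKM, a ratio of 3.82. These 4 genes lie in 1 cluster on chromosome 18.

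The plakophilins, which tie desmosomal cadherins to desmoplakin, each behaved differently. PKP1 was listed at 0 and at 0.150 FPKM (33 fragments), with a lower 95% limit of the ratio of 8.51. PKP2 was at 11.9 and 12.7 FPKM in MDA-MB-231, a ratio of 1.07 (1.01 to 1.14), and went from 2.66 to 17.1 FPKM in HMLER, a ratio of 6.41. PKP3 (chromosome 11, 392614 to 404908, plus strand) was at 12.3 FPKM (1361 fragments) and 5.93 FPKM (653 fragments), a ratio of 0.483 whose interval, 0.439 to 0.530, included 0.5. Of the 3 plakophilins, PKP2 alone is listed in HMLER.

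Of the plakins, which anchor keratin filaments, DSP (desmoplakin) was at 9.38 and 17.8 FPKM, a ratio of 1.90 (1.83 to 1.98), with both transcripts higher after DAC. PPL (periplakin) was at 0.0350 FPKM (9 fragments) and 0.536 FPKM (138 fragments), a ratio of 15.3 (7.89 to 34.4). EVPL (envoplakin; chromosome 17, 74000583 to 74023387, minus strand), which pairs with periplakin in the cornified envelope of the skin, was at 22.1 FPKM (6055 fragments) and 10.9 FPKM (2968 fragments), a ratio of 0.493 (0.472 to 0.515). In HMLER EVPL went from 0.0619 to 1.86 FPKM, a ratio of 30.03. EVPL was the 1 member listed as higher in HMLER whose value in MDA-MB-231 was lower after DAC, and the difference between the lines was not tested.

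Of the 8 regulators, ESRP2 and GRHL1 reached 1 FPKM and both were called higher, with a median log2 change of 1.32. Both were under 1 FPKM in untreated cells and reached that level only in the DAC library, so the filter itself fixed the direction. With 1 FPKM required in each library, no regulator was left. All 8 had the higher value after DAC, against 34 of the 41 members and 10336 of the 23617 symbols. The regulators other than ESRP2 and GRHL1 were under 1 FPKM in both libraries. Of all such symbols above 0 in at least 1 library, 81.3% had the higher value after DAC, so the count is not particular to the regulators. ESRP2 (chromosome 16, 68262936 to 68272005, minus strand), an RNA-binding protein that directs epithelial splicing, was at 0.378 FPKM (62 fragments) and 3.89 FPKM (630 fragments), a ratio of 10.3 (7.87 to 13.5). In HMLER it went from 3.19 to 13.1 FPKM, a ratio of 4.11. ESRP2 exons share 227 bases, 4.37% of their length, with NFATC3 on the opposite strand, which was at 11.7 and 9.64 FPKM. Its relative ESRP1, with the same role, had 4 and 47 fragments, or 0.0270 and 0.326 FPKM, a ratio of 12.1 (4.32 to 45.2).

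The grainyhead-like factors, which activate junction genes in epithelia, differed by level. GRHL1 (chromosome 2, 10091822 to 10142405, plus strand) was at 0.697 FPKM (101 fragments) and 1.97 FPKM (284 fragments) in MDA-MB-231, a ratio of 2.83 (2.25 to 3.59), and at 0.616 and 1.86 FPKM in HMLER, a ratio of 3.02. The ratios of GRHL1 were close in the 2 lines. GRHL2 had no fragment in untreated cells and 1 after DAC, too few for a ratio, and is not listed in HMLER. GRHL3 had 1 and 20 fragments, or 0.00902 and 0.193 FPKM, a ratio of 21.4 (3.22 to 834), and in HMLER it went from 0.223 to 3.01 FPKM, a ratio of 13.5. The HMLER value belongs to NM_198173, for which the MDA-MB-231 libraries had 0 and 0.0371 FPKM.

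The remaining transcription factors were barely detected. ELF3, an ETS factor of epithelia, was listed at 0 and had 8 fragments after DAC (0.0645 FPKM), with a lower 95% limit of the ratio of 1.72, and its exons share 664 bases with ELF3-AS1 on the opposite strand. OVOL1 was listed at 0 and had 6 fragments (0.0503 FPKM), with a lower limit of 1.18, and 1039 bases of its exons (27.3%) overlap an RNA annotated on the opposite strand. OVOL2, like OVOL1 a zinc finger repressor of mesenchymal genes, had 1 and 5 fragments (0.0174 and 0.0874 FPKM), a ratio of 5.03 with an interval, 0.563 to 238, that included 1. A difference was not detectable at this depth for OVOL2.

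The 3 genes of polarity, trafficking and proteolysis stayed under 1 FPKM in both MDA-MB-231 libraries. ST14, encoding the epithelial surface protease matriptase, had 7 and 52 fragments, or 0.0530 and 0.397 FPKM, a ratio of 7.48 (3.38 to 19.5), and went from 0.463 to 1.58 FPKM in HMLER, a ratio of 3.41. CRB3, encoding an apical polarity protein, was at 0.209 and 0.420 FPKM (6 and 14 fragments), a ratio of 2.01 with an interval, 0.847 to 7.45, that included 1. RAB25, a GTPase of epithelial vesicle recycling, had no fragment and then 2, too few for a ratio. Only ST14 of these 3 is listed in HMLER.

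In HMLER, 12 of the 41 members are listed as higher, against 7.85% of all symbols: EPCAM, CLDN1, CLDN3, CLDN6, CLDN7, DSG3, PKP2, EVPL, ESRP2, GRHL1, GRHL3 and ST14. Untreated HMLER cells had under 1 FPKM of 9 of these 12. The tables of the 2 lines were normalised separately, so levels were not compared between them. In MDA-MB-231, 11 of the 12 had the higher value after DAC, EVPL being the exception, and 3 (DSG3, GRHL3 and ST14) stayed under 1 FPKM in both libraries. Shares over all symbols listed in HMLER are not given for the 9 or the 11 of these 12. The HMLER listing keeps only transcripts that rose, so neither count can be read as particular to the members. CLDN1, CLDN3, CLDN6, ESRP2 and GRHL1 were higher in both lines, 5 of 41 members against 1.94% of all symbols. This count was 0 when each condition had to reach 1 FPKM, since all 5 were under 1 FPKM in untreated MDA-MB-231 cells, and 0 when 5 FPKM had to be reached. The desmosomal genes contributed 0 of these 5, the claudins 3 and the regulators 2. The HMLER ratio was above the MDA-MB-231 ratio for CLDN6 and CLDN3 and below it for ESRP2, without a test of these differences.

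**Figure D5:**
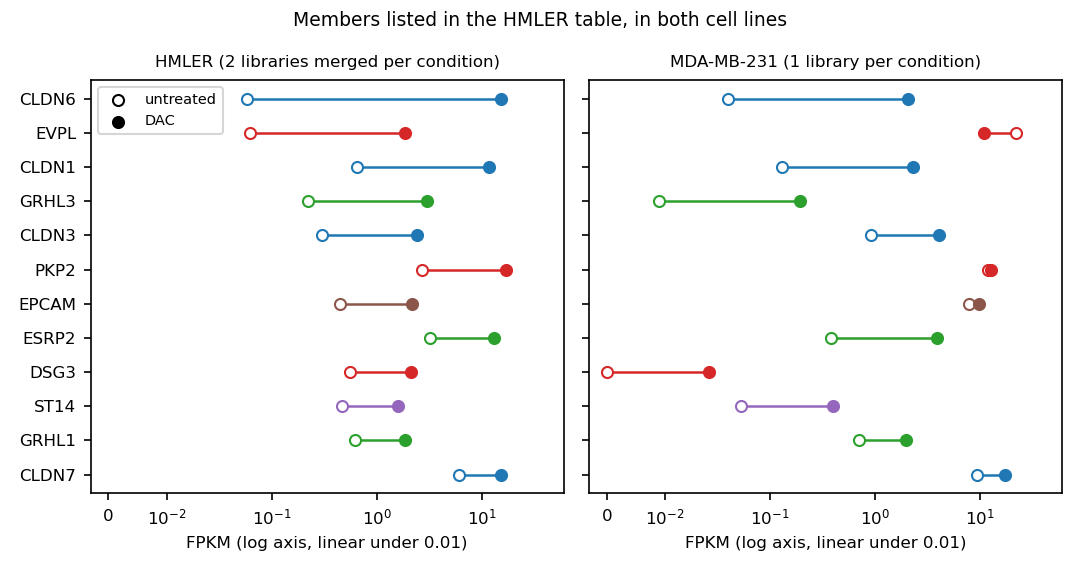
FPKM (log axis, linear under 0.01) before (open circles) and after DAC (filled circles) of the 12 members listed in the HMLER table, in HMLER (left, 2 libraries merged per condition) and MDA-MB-231 (right, 1 library per condition). Colours follow role: brown for EPCAM, blue for claudins, red for desmosomal genes, green for regulators and purple for ST14. EVPL is the 1 gene whose filled circle lies to the left in MDA-MB-231, and DSG3 was listed at 0 in untreated MDA-MB-231 cells.

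E-box letters (CAGGTG or its reverse complement CACCTG, the 2 strands of the same motif) occurred in 9 of the 23 member promoters found in the table (39.1%) and in 17.5% of all 27305 promoters. The promoter of CRB3 held 5 such matches, those of DSP and DSG2 held 2 each, and those of OCLN, TJP1, DSC2, GRHL3, ELF3 and RAB25 held 1 each. None of the 5 promoters printed above holds one. The letters AACCGGTT, the GRHL motif, which reads the same on both strands, were in 0 of the 23 and in 0.106% of all promoters. These matches describe letters in a window of 250 bases.

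Other genes of the same structures were counted in the same way. Of 24 other claudins and tight junction genes, 9 reached 1 FPKM and 2 were higher, with a median log2 change of 0.06. They were LSR, which builds tricellular junctions, at 0.0939 and 3.85 FPKM in MDA-MB-231 and 1.36 and 7.72 FPKM in HMLER, and CLDN11, at 0.0211 and 2.76 FPKM. Of 12 other adherens junction genes in the table, 10 reached 1 FPKM, with a median of -0.65. CDH2, encoding N-cadherin, was higher (0.0902 and 1.06 FPKM), and MLLT4, encoding afadin, was lower (27.0 and 13.4 FPKM). Of 11 other desmosome and hemidesmosome genes, 7 reached 1 FPKM and 3 were lower, with a median of -0.83: PLEC (169.7 and 64.9 FPKM), ITGA6 (54.0 and 22.9 FPKM) and COL17A1 (6.09 and 2.80 FPKM). COL17A1, like EVPL, is listed as higher in HMLER, at 0.470 and 8.09 FPKM. Of 15 other polarity genes in the table, LLGL2 (0.850 and 2.63 FPKM) and PARD6B (0.457 and 1.42 FPKM) were higher and are listed in HMLER, while DLG1 (70.5 and 23.6 FPKM) and SCRIB (52.9 and 25.5 FPKM) were lower, with a median of -0.23 over the 12 at 1 FPKM or more.

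Of 24 other epithelial regulators and surface genes, 12 reached 1 FPKM, 7 were higher and 0 lower, with a median log2 change of 0.71, and 8 are listed in HMLER. Those higher in both lines were ERBB3, SPINT1, KLF5 and MUC1. All of them but KLF5 were under 1 FPKM in untreated MDA-MB-231 cells and reached that level only in the DAC library. SPINT1, an inhibitor of the matriptase encoded by ST14, was at 0.0220 and 1.56 FPKM in MDA-MB-231 and 4.26 and 9.06 FPKM in HMLER. Genes that mark mesenchymal cells were measured beside them: of 10, 5 were higher and 2 lower. VIM went from 3066 to 1134 FPKM and ZEB1, a repressor of CDH1, from 31.1 to 15.2 FPKM, while SNAI1, a repressor of the same gene, went from 2.97 to 10.5 FPKM, FN1 from 39.8 to 111.3 FPKM and SPARC from 2.09 to 11.3 FPKM. SNAI1 is also listed in HMLER, at 3.06 and 7.40 FPKM. Epithelial and mesenchymal genes were thus both found among the higher genes. With ratios taken relative to the median of all symbols, PLEC, ITGA6, DLG1 and VIM were still lower, COL17A1, MLLT4, SCRIB and ZEB1 were within 2-fold, and the counts of higher genes in these lists were the same.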

How the data were processed

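Polyadenylated RNA was sequenced (TruSeq RNA kit) from 6 libraries. Per the labels and the study's methods, the authors aligned reads to hg19 with TopHat2 and ran Cuffdiff (Galaxy) to obtain FPKM per RefSeq transcript. Versions and library scaling are not given in the sources used here. The deposited FPKM values of HMLER are 1 merged value per condition. The 2009 transcripts of that table had already been restricted to those higher after DAC and marked significant. Columns with the authors' fold changes, p-values and q-values were not used.

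The members, the other gene lists and the thresholds were chosen with earlier results of these data known. FPKM was summed over transcripts of a symbol, and log2 changes had 1 FPKM added to each value, which understates the change of low genes. Fragments were inferred with an effective length of the transcript length minus 240 bases. The code for the ratio calls was run on simulated data, where 200 of 10537 symbols were changed well past the threshold and 200 were recovered. Low values and counting error were left out of the simulation, so it does not show how reliable the calls are. Members at 1 FPKM or more in any condition are named with their values, and the other members too. From each other list at most 5 genes were to be named: those higher in both lines, then those with the largest log2 change. All luminal and basal markers are named nonetheless (KRT5 was added after its values were seen), and LYZ is named outside this order. Positions come from GENCODE v44 lifted to GRCh37 (41 of 41 found), promoters from RefSeq on GRCh38.p14, counted from the 250 bases before the start. Alternatives were other filters, pseudocounts, scaling by the median ratio, the largest transcript, any transcript and transcripts with status OK. The software was scipy 1.17.1, pandas 2.3.3, numpy 2.4.6 and matplotlib 3.10.9 under Python 3.11.15.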

Additional observations from a re-analysis of the deposited data

Results flagged for a closer look

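EVPL, the gene of envoplakin, went in opposite directions in the 2 cell lines. Its DAC/untreated ratio was 0.493 in MDA-MB-231, from 22.1 to 10.9 FPKM, and it is listed in HMLER at 0.0619 and 1.86 FPKM, a ratio of 30.03. The difference between the lines was not tested. Divided by the median ratio of all symbols, its MDA-MB-231 ratio no longer passed the threshold of 0.5.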

How the results depend on the processing

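Of the members, 7 were called higher in MDA-MB-231. This number became 18 when low values were kept, 2 when each library had to reach 1 FPKM (F11R and JUP) and 2 when any library had to reach 5 FPKM. It was 16 by the counting interval, chosen after the data were seen, which 12.2% of the symbols asked passed. It stayed between 5 and 9 under the other alternatives. Apart from the counting interval, shares over all symbols are not given for these alternatives, so their counts have no background. The number lower, 3, was 1 with 1 FPKM added before the ratio, 1 after division by the median ratio and 1 by the counting interval, CLDN4 each time. The number higher in both lines, 5, became 0 when each condition had to reach 1 FPKM and 0 when any had to reach 5 FPKM. Members listed in HMLER, 12, were 3 and 5 under those filters. The median log2 change, 0.34, was 0.53 with a pseudocount of 0.1 FPKM, 0.25 without a filter and 0.042 with the minimum of 5 FPKM. It was 0.46 after subtracting -0.118, the median of all symbols at 1 FPKM or more in both libraries. With the largest transcript it was 0.50. Over all symbols the median was -0.083 in the main setting, -0.092 with that pseudocount and 0.018 without a filter. It was -0.151 with the minimum of 5 FPKM and -0.086 with the largest transcript. The count of members with bounds that do not overlap was 1 throughout. Of 21 ratios none moved by over 1.5 times with the largest transcript, though DSC2 then passed 2 (2.15). No paired analysis was possible because MDA-MB-231 has 1 library per condition and the HMLER libraries are merged to 1 value. For the same reason no replicate could be left out. The depth limits GRHL2, RAB25 and OVOL2, with 5 fragments or fewer.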

Other observations

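Among markers of mammary cell types, ACTA2, a smooth muscle actin of myoepithelial cells, went from 0.705 FPKM to 15.1 FPKM with DAC in MDA-MB-231, and in HMLER its values were 17.6 and 45.1 FPKM. GATA3, a luminal transcription factor, was at 0.795 and 1.71 FPKM in MDA-MB-231 without and with DAC. FOXA1, another such factor, was at 1.10 and 1.83 FPKM there and at 0.533 and 1.13 FPKM in HMLER. TP63, the basal regulator, was listed at 0 in the untreated MDA-MB-231 library and at 0.0916 FPKM in the treated one. Lower or close to the untreated level in that line were KRT8 (154.4 and 141.0 FPKM) and KRT18 (173.5 and 164.1 FPKM). The same held for MYLK (15.2 and 14.2 FPKM) and KRT5 (0.0112 and 0 FPKM). Both MYLK (4.94 and 14.2 FPKM) and KRT5 (9.85 and 37.1 FPKM) are listed as higher in HMLER. The remaining luminal and basal markers had larger values in the treated MDA-MB-231 library. ERBB3 was at 0.496 and 3.43 FPKM. Listed at 0 without DAC were KRT17 (0.293 FPKM with DAC), KRT14 (0.0495 FPKM), PGR (0.0555 FPKM) and ESR1 (0.0193 FPKM). The summed level of the luminal markers was 330.3 FPKM without and 312.2 FPKM with DAC. With 1 FPKM required in at least 1 library, 2 of 7 luminal markers measured in MDA-MB-231 were more than 2-fold higher. None was more than 2-fold lower, and of 6 basal markers 1 was higher and none lower by this measure.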
